A study of Mus musculus with 12 samples.

Results

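The genes described here are the C-type lectins, galectins and Siglecs of mouse liver sinusoidal endothelial cells. They are all genes on the array whose symbol is of the form Clec with a number and letter, Cd209a to Cd209g, Colec10 to Colec12, Lgals with a number, or Siglec with a number or letter. The rule used names only and no measured value. It found 58 genes, 1 probe set each, among 25428 probe sets. Expression was measured on 12 Affymetrix arrays, 6 per group, and each array carried RNA pooled from the livers of 3 mice. The NICD-OE-HEC group came from mice carrying a Clec4g-Cre transgene and a Rosa26 allele for the Notch1 intracellular domain followed by an IRES and GFP, so that Cre made under Clec4g control switches on the Notch fragment in hepatic endothelium. The Control group is labelled only as control, and the sources used here give neither its genotype nor the age of the mice. In both groups nonparenchymal cells were taken from a Nycodenz gradient and endothelial cells were selected with CD146 beads. The values are log2 RMA values without detection calls. A value below the array median of 3.67 is treated here as not separable from background. That is a convention and not a measured detection limit.

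C-type lectins are built around a calcium-dependent carbohydrate-recognition fold, although many of them bind proteins or lipids in place of sugars. Galectins are small proteins that bind beta-galactosides on glycoproteins and leave the cell without a signal peptide, and Siglecs are cell-surface receptors that read sialic acid, most of them with inhibitory tails. Sinusoidal endothelium carries several such receptors and is known for using them to remove glycoproteins and particles from blood, while other members belong to Kupffer cells, dendritic cells, neutrophils or platelets.

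The labelled cell type was checked against its markers. Clec4g, Clec1b and Cd209b, the lectins that mark this endothelium, had Control means of 12.34, 9.57 and 6.20, and the pan-endothelial gene Cdh5 stood at 11.5 in both groups. Of 12 sinusoidal endothelial markers, a list that holds these 3 lectins, 11 were lower in NICD-OE-HEC and 1 was higher. Of 8 pan-endothelial markers, Cdh5 among them, 3 were lower, 1 was higher and 4 did not pass. All markers of both lists had both group means above the array median, where 8.20% of probe sets were higher and 10.4% lower. The mean of the pan-endothelial list ran from 10.24 to 10.42 in Control and from 10.12 to 10.28 in NICD-OE-HEC. Correlations between arrays of a group lay between 0.976 and 0.992. Control replicate 2 and NICD-OE-HEC replicate 4 stood apart on the second principal component at -48.5 and -30.3, the other arrays lying between -8.51 and 22.3. Without these 2 arrays 10 lectin genes were higher and 6 lower, against 8 and 7 with all arrays.

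Many of these genes are neighbours. In the order of protein-coding genes on GRCm38.p6, 30 of the 58 fall into 3 runs. On chromosome 8 Clec4g is followed directly by Cd209a, Cd209e, Cd209d, Cd209b, Cd209c, Cd209f and Cd209g. On chromosome 6 the Dectin-2 run holds 9 genes from Clec4a1 to Clec4e, and a second run of 13 members goes from Clec2h through Clec12a, Clec12b, Clec1b, Clec9a and Clec1a to Clec7a. Promoter sequences of 8 genes of these runs follow. For 7 of them the reason is that their run on chromosome 8 or their second run on chromosome 6 held both genes that rose and genes that fell, and Clec4d stands for the Dectin-2 run, where 3 rose and 0 fell. Each shows the 250 bases before the RefSeq start (GRCm38.p6), 5′ to 3′ on the gene's strand. Capitals mark GAGGAA on either strand, the core of the site bound by the myeloid and B cell factor PU.1.
Clec4g, lower, chr8:3720652-3720901, minus strand: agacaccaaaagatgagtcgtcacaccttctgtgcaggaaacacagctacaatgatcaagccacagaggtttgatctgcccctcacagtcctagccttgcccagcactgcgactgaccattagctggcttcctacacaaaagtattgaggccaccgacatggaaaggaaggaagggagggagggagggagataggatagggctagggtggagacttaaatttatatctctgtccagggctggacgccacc
Cd209a, higher, chr8:3748985-3749234, minus strand: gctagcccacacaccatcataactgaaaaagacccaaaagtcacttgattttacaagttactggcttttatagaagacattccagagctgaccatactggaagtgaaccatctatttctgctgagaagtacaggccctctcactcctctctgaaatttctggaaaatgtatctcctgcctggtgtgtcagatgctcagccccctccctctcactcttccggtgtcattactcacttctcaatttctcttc
Cd209b, lower, chr8:3926842-3927091, minus strand: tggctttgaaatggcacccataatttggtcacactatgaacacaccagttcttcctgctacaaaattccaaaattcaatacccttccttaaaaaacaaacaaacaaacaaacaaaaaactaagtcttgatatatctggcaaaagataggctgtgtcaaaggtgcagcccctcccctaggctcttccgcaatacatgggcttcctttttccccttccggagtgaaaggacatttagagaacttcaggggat
Clec4d, higher, chr6:123261857-123262106, plus strand: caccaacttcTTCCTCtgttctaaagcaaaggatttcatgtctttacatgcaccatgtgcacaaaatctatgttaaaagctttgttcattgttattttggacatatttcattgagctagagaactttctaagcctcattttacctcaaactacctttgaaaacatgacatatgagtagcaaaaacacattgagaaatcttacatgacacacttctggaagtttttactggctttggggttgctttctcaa
Clec12a, higher, chr6:129349994-129350243, plus strand: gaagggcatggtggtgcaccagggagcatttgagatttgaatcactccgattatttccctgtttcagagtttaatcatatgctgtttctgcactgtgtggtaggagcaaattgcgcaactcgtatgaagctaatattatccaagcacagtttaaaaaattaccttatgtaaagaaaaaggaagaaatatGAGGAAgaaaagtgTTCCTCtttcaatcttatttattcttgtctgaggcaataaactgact
Clec1b, lower, chr6:129397047-129397296, plus strand: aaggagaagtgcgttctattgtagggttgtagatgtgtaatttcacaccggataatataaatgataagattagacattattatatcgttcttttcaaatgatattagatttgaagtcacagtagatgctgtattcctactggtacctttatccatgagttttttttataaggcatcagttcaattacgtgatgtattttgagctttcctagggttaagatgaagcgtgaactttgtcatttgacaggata
Clec9a, lower, chr6:129408612-129408861, plus strand: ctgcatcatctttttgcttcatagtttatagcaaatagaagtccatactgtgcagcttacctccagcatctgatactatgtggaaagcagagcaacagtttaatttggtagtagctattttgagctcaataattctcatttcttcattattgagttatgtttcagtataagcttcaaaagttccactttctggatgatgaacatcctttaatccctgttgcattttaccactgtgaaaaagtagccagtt
Clec7a, higher, chr6:129472780-129473029, minus strand: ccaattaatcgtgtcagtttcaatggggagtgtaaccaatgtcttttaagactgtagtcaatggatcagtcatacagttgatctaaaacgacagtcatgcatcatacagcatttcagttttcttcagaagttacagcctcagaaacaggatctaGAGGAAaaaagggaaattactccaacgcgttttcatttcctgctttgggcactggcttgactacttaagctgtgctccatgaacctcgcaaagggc

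RefSeq promoters were found for 44 of the 58 genes. GAGGAA stood in 19 of these 44 windows, 43.2%, against 23.1% of 27025 promoters of the same length. Among members past the test it was in 4 of 7 promoters of genes that rose (Clec12a, Clec4d, Clec5a and Clec7a) and in 0 of 4 of genes that fell. Those 4 were Clec4g, Cd209b, Clec1b and Clec9a, while Lgals1, Colec10 and Colec12, which also fell, had no promoter entry. Most of the 19 members that held GAGGAA did not pass the test, so the letters are not particular to genes that rose. In the printed sequences Clec12a held it 61 and 47 bases before the start, Clec7a 96 bases before and Clec4d 240 bases before. TGGGAA, the core of the site of RBPJ, the DNA-binding partner of the Notch fragment, was in 8 of 44 members (18.2%) against 21.5% of all promoters, and in 0 of the 7 that rose and 0 of the 4 that fell. AGATAA, a form of the GATA site, was in 3 of 44 (6.82%) against 10.3%, and likewise in 0 of 7 and 0 of 4. Other forms of the GATA site were not searched, so a count of 0 does not mean that these promoters lack GATA sites. Both strands were searched for each motif, and the PU.1 and RBPJ letters end in the same GGAA. A match is only a run of letters, neighbouring paralogues share ancestry, and binding was not measured.

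Of the 58 lectin genes, 8 rose and 7 fell in NICD-OE-HEC, and 43 did not pass the test (limma, Benjamini-Hochberg adjusted p under 0.05 over all probe sets). These are 13.8% and 12.1% of the members. Over all probe sets 4.89% were higher and 5.59% were lower. The median difference of the members was 0.07 and that of all probe sets -0.01. Of the 58, 26 had both group means above the array median and 29 had both below it. Of the 26 above it in both groups, 5 rose and 7 fell, 19.2% and 26.9%, against 8.20% and 10.4% of the 12336 probe sets equally above it. Of the 29 below it in both groups 1 rose and 0 fell, with 4 at an unadjusted p under 0.05. Every NICD-OE-HEC array lay below every Control array for 5 of the 58 members (8.62%) and for 3.7% of all probe sets. All 5 were among the 7 that fell, 71.4%, where the share among all probe sets that fell was 62.4%. Every NICD-OE-HEC array lay above every Control array for 1 of the 58 (1.72%), Cd209a, and for 2.98% of all probe sets. That is 12.5% of the 8 members that rose, where the share among all probe sets that rose was 57.6%. With a log2 difference of at least 1 also required, 3 members rose and 2 fell, where 2.09% of all probe sets passed in either direction. The number of members that rose dropped from 8 to 4 when Control replicate 3, 4 or 6 or NICD-OE-HEC replicate 1 or 3 was left out, and to 5 without Control replicate 5. The number that fell stayed between 6 and 7 whichever array was left out.

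**Figure D1:**
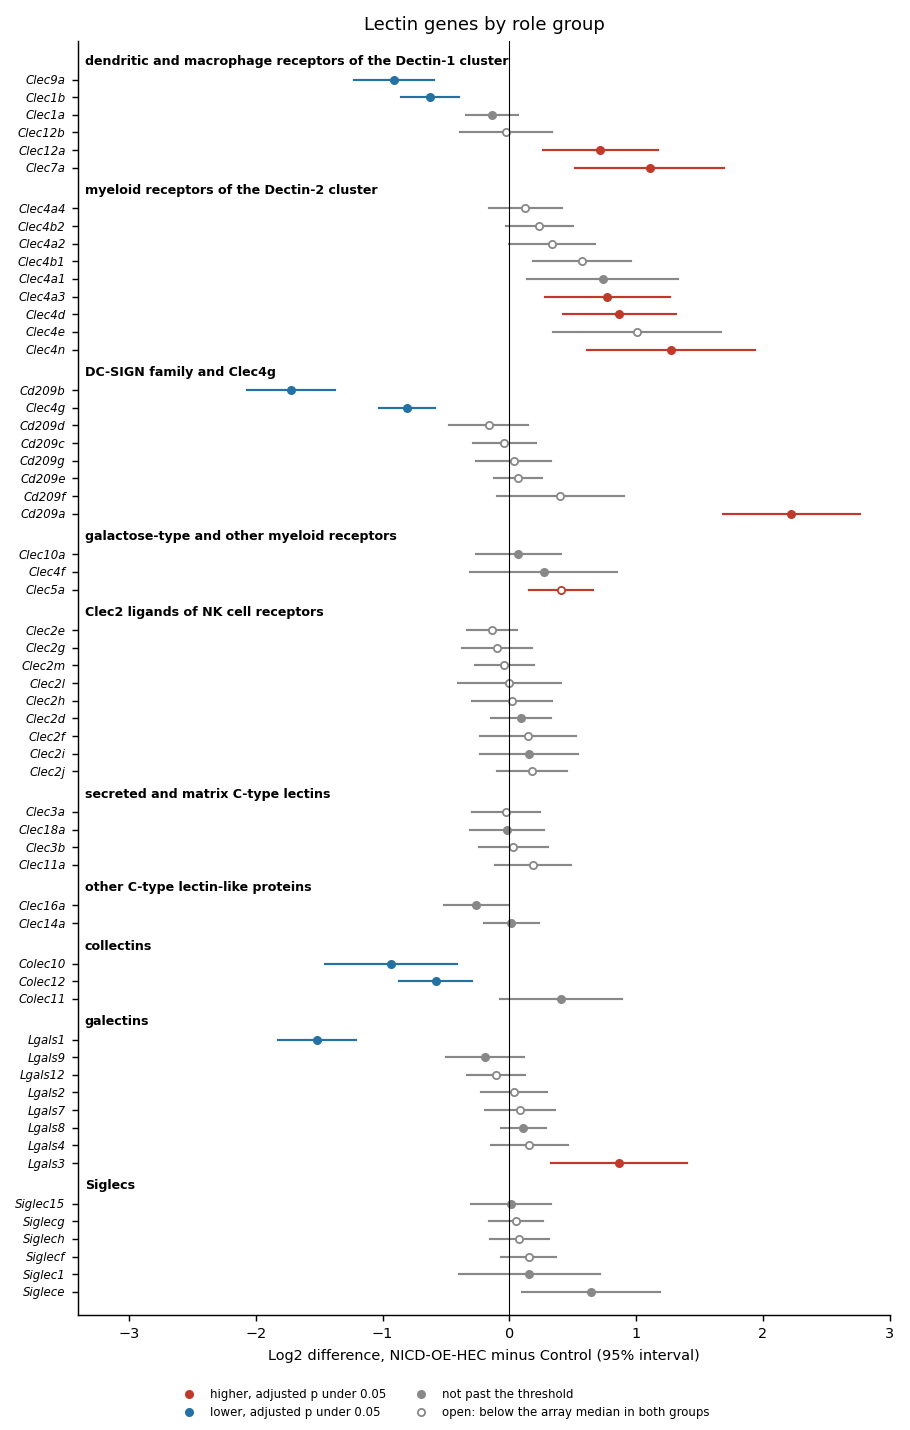
Log2 difference (NICD-OE-HEC minus Control, x axis) of each of the 58 lectin genes with its 95% interval, by role group. Red points rose, blue points fell, grey points did not pass the test, and open points lie below the array median in both groups; Cd209a (2.22) and Cd209b (-1.72) are the highest and the lowest points and belong to the same family.

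Cd209b, Clec4g and Clec1b, the 3 lectins that mark sinusoidal endothelium, all fell, and for each the groups did not overlap. Cd209b, also called SIGN-R1, is a receptor that captures bacterial polysaccharides and dextran. Its Control arrays ran from 5.99 through a median of 6.18 to 6.40, and its NICD-OE-HEC arrays from 3.75 through 4.61 to 4.87. No array of either group overlapped the other, and the lowest value, on NICD-OE-HEC replicate 5, was close to the array median. The difference of -1.72 (SE 0.16, adjusted p = 4.10e-06) is a 3.31-fold fall from 6.20 ± 0.18 to 4.48 ± 0.41 (SD, n = 6 each). Clec4g, or LSECtin, binds glycans that end in N-acetylglucosamine or mannose, and its control region also drives the Cre of the model. It ran from 12.10 through 12.35 to 12.49 in Control and from 11.38 through 11.47 to 11.86 in NICD-OE-HEC. All 6 NICD-OE-HEC arrays lay below all Control arrays, at a difference of -0.81 (SE 0.10, adjusted p = 7.61e-05), 1.75-fold lower. In bulk samples like these, fewer cells of a type and less RNA per cell cannot be told apart, and the same holds for the rises.

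Clec1b, or CLEC-2, is the receptor for podoplanin and is known from platelets as well as from this endothelium. It ran from 9.31 through 9.52 to 9.80 in Control and from 8.71 through 8.97 to 9.10 in NICD-OE-HEC. The groups did not overlap, and the difference was -0.63 (SE 0.11, adjusted p = 9.53e-04), 1.54-fold lower. Of 8 platelet markers measured on the same arrays, 5 did not pass, 3 were higher (Pf4 by 0.56, Ppbp by 1.01 and Itgb3 by 1.08) and 0 lower, and the list's mean ran from 4.23 to 4.49 in Control and from 4.53 to 4.97 in NICD-OE-HEC. Among all probe sets 4.89% were higher and 5.59% lower. The part of platelets in the Clec1b value was not tested. Pdpn, the gene of podoplanin, stood at 4.48 and 4.72 and did not pass the test (adjusted p = 0.228).

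Not every endothelial lectin fell. Clec14a, a lectin-like receptor of blood vessels that binds the matrix protein multimerin-2, was 9.68 ± 0.18 in Control and 9.70 ± 0.14 in NICD-OE-HEC (difference 0.02, 95% interval -0.20 to 0.23, adjusted p = 0.956). Clec1a, a melanin-sensing receptor of endothelium and myeloid cells, was 7.28 ± 0.16 and 7.15 ± 0.13 (difference -0.14, 95% interval -0.34 to 0.07, adjusted p = 0.482). For both genes the interval leaves out a fall of the size fitted for Clec1b. The sign of the Clec14a difference changed when Control replicate 2 or 5 or NICD-OE-HEC replicate 6 was left out.

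Clec9a, or DNGR-1, senses actin filaments of dead cells and is a textbook receptor of cross-presenting dendritic cells. Its Control arrays ran from 4.21 through 4.73 to 5.19 and its NICD-OE-HEC arrays from 3.50 through 3.80 to 4.09. The groups were apart, and the NICD-OE-HEC arrays lay on both sides of the array median, so the 1.88-fold fall (difference -0.91, SE 0.15, adjusted p = 7.00e-04) is not exact in size. Xcr1 and Flt3, defining genes of those dendritic cells, were below the array median in both groups, with means of 3.01 and 2.97 for Xcr1 and 3.03 and 2.99 for Flt3. Of 9 dendritic cell markers, Cst3 rose by 0.64, Zbtb46 fell by 0.99 and 7 did not pass, where 4.89% of all probe sets rose and 5.59% fell. The mean of the dendritic cell list ran from 4.57 to 4.79 in Control and from 4.58 to 5.01 in NICD-OE-HEC. What part this had in the Clec9a result was not tested. On chromosome 6 Clec9a lies directly after Clec1b, which also fell.

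**Figure D2:**
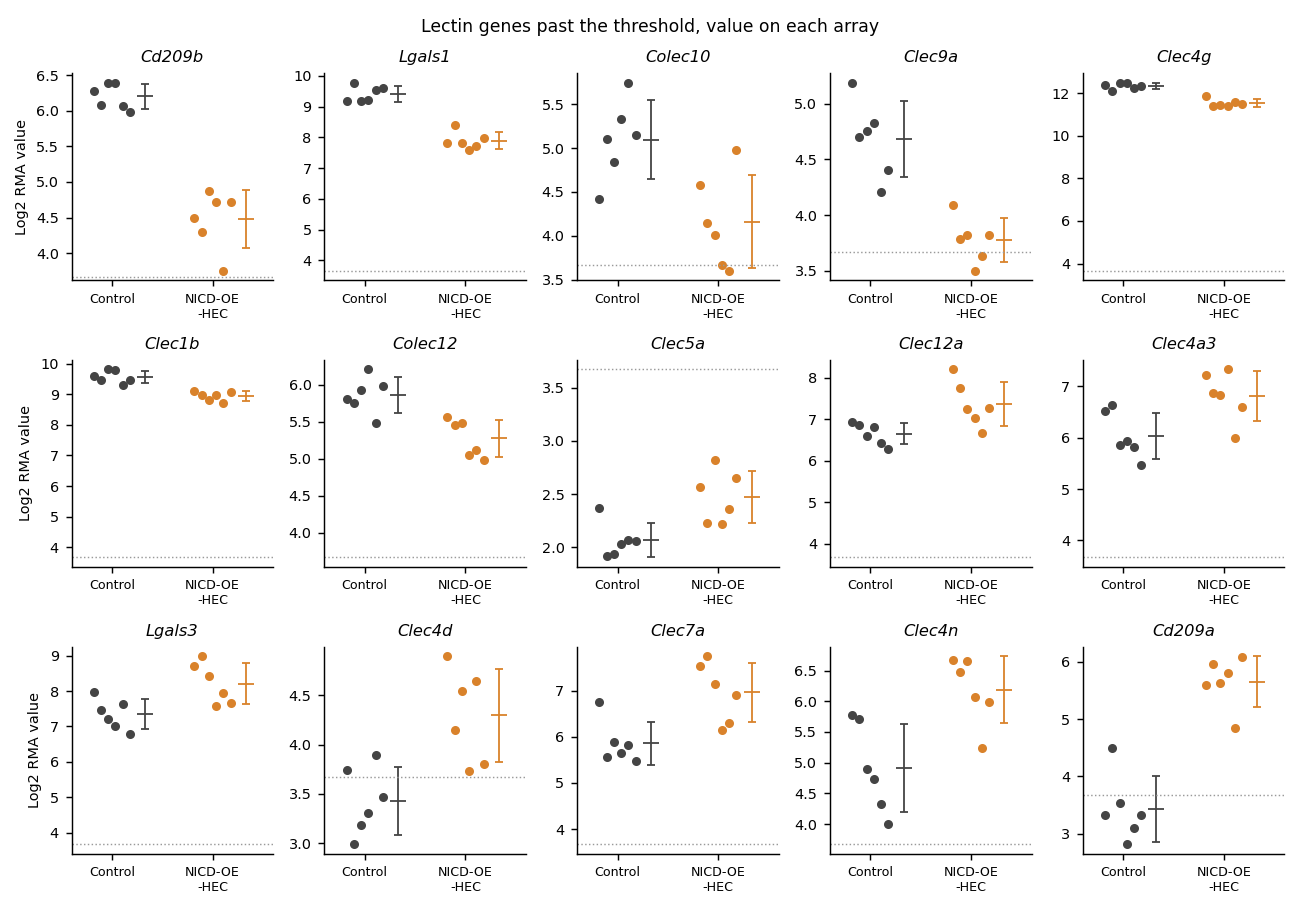
Log2 RMA value (y axis, scaled per panel) on each array for the 15 lectin genes past the threshold, ordered by difference; bars give mean and SD over 6 arrays and the dotted line is the array median of 3.67. The groups are apart for Cd209b, Lgals1, Clec9a, Clec4g, Clec1b and Cd209a and overlap for the other 9.

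Collectins are soluble or membrane lectins with a collagen-like stem. Colec12, a scavenger receptor of endothelium that takes up oxidized lipoprotein and microbes, ran from 5.48 through 5.87 to 6.20 in Control and from 4.98 through 5.28 to 5.56 in NICD-OE-HEC. Only the lowest Control array, replicate 5, fell within the NICD-OE-HEC range, and the difference was -0.58 (SE 0.14, adjusted p = 0.0106). Colec10, a circulating collectin that starts the lectin pathway of complement, ran from 4.42 through 5.12 to 5.75 in Control and from 3.60 through 4.07 to 4.98 in NICD-OE-HEC. Its groups overlapped, with Control replicate 1 low and NICD-OE-HEC replicate 6 high, and the difference was -0.94 (SE 0.24, adjusted p = 0.0211). Colec10 lost its call when Control replicate 4 was left out and when Control replicate 2 and NICD-OE-HEC replicate 4 were left out together. Colec11, its partner in the circulating complex, was 5.29 ± 0.56 in Control and 5.70 ± 0.31 in NICD-OE-HEC and did not pass (difference 0.41, adjusted p = 0.326). Of 10 stellate cell and fibroblast markers on these arrays 3 were higher (Col1a1, Col1a2 and Col3a1) and 1 lower (Lrat, difference -0.75). Shares over all probe sets were 4.89% higher and 5.59% lower. The mean of the stellate cell and fibroblast list ran from 4.86 to 5.98 in Control and from 5.60 to 6.11 in NICD-OE-HEC. The part of these cells in the collectin values was not tested.

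Galectins split. Lgals1, a dimeric galectin known for restraining T cells and for its presence on endothelium, ran from 9.18 through 9.37 to 9.78 in Control and from 7.59 through 7.83 to 8.42 in NICD-OE-HEC. The groups were far apart, with the highest NICD-OE-HEC array well under the lowest Control array. Lgals1 fell 2.86-fold from 9.41 ± 0.26 to 7.90 ± 0.29 (SD, n = 6 each; difference -1.51, SE 0.14, adjusted p = 4.52e-06). Lgals3, a galectin of macrophages and injured tissue that forms lattices through its collagen-like tail, ran from 6.79 through 7.33 to 7.98 in Control and from 7.58 through 8.19 to 8.98 in NICD-OE-HEC. Control replicates 1 and 5 lay within the NICD-OE-HEC range, at 7.98 and 7.64. Lgals3 rose by 0.86 (SE 0.25, adjusted p = 0.0387), 1.82-fold, and lost its call without Control replicate 3, 4 or 6 or NICD-OE-HEC replicate 1, 2 or 3, and in the trended robust fit (adjusted p = 0.0520). The other 6 galectins did not pass. Lgals9, a ligand of the receptor TIM-3, was 9.50 ± 0.30 and 9.30 ± 0.24 (difference -0.19, 95% interval -0.50 to 0.11). Lgals8, which marks damaged vesicles for autophagy, was at 7.16 and 7.27 (difference 0.11, adjusted p = 0.515). Lgals2, Lgals4, Lgals7 and Lgals12 were below the array median in both groups. Lgals3bp, a secreted glycoprotein that binds Lgals3, is not itself a galectin and fell by 0.61 (SE 0.12, adjusted p = 0.00348).

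Within the Cd209 family the member known from dendritic cells went opposite to Cd209b. Cd209a is the closest mouse relative of the mannose and fucose receptor DC-SIGN, and is known from dendritic cells and some monocyte-derived cells. It ran from 2.81 through 3.33 to 4.50 in Control and from 4.85 through 5.72 to 6.09 in NICD-OE-HEC. Control replicate 2 was the highest Control array, the other 5 Control arrays lay below the array median, and the groups did not overlap. Cd209a rose by 2.22 (SE 0.25, adjusted p = 2.59e-05), and because the Control mean lay in the range treated as background, the 4.67-fold rise is not exact. It is the nearest neighbour of Clec4g, which fell, and 2 other family members lie between it and Cd209b. Cd209c, Cd209d, Cd209e, Cd209f and Cd209g were below the array median in both groups and did not pass, with differences from -0.16 to 0.40. Members of this family are close paralogues, and whether their probes share targets was not tested.

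**Figure D3:**
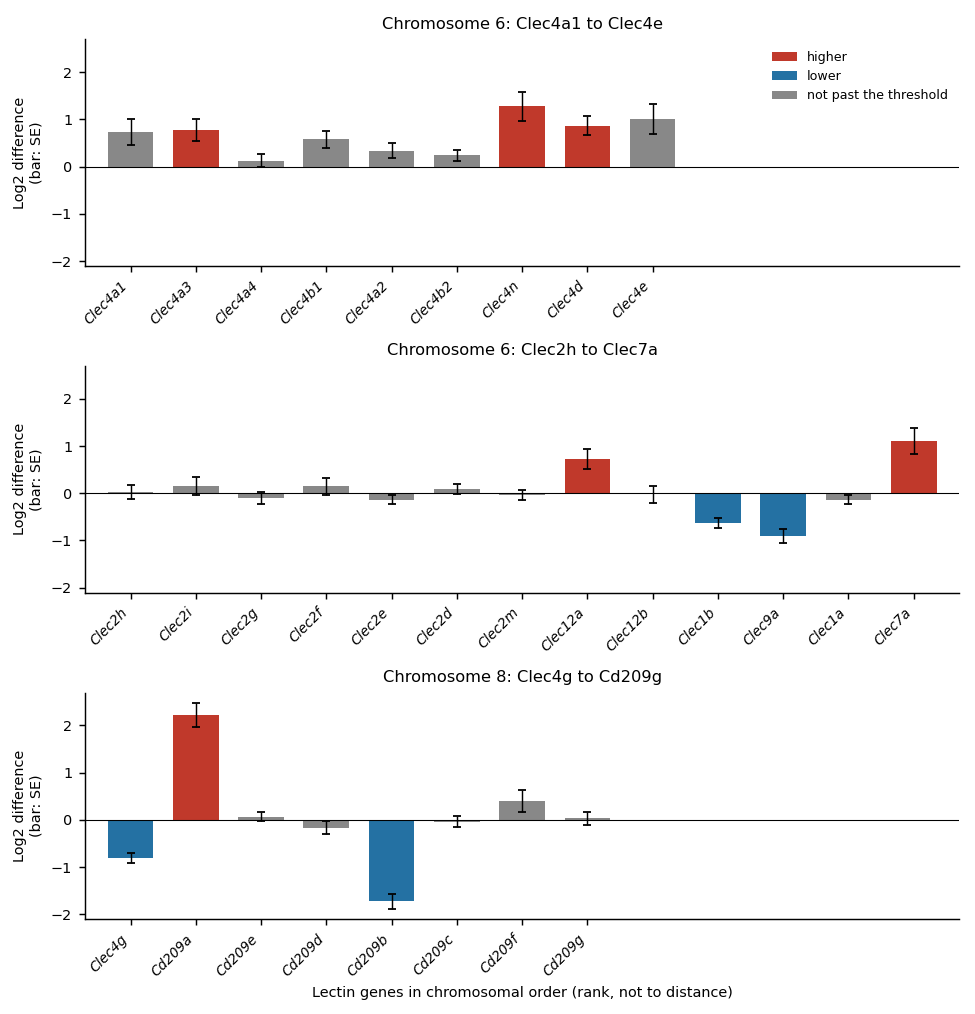
Log2 difference (y axis, error bars SE) of the lectin genes in the 3 chromosomal runs, in gene order along the x axis and not to distance. The Dectin-2 run (top) lies above 0 throughout, the second run on chromosome 6 holds Clec12a and Clec7a on either side of Clec1b and Clec9a, and on chromosome 8 Clec4g and Cd209b fell while Cd209a rose.

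Myeloid pattern receptors rose in part. In the Dectin-2 run 3 of 9 genes rose (33.3%) and 0 fell, with a median difference of 0.74. Over all probe sets 4.89% rose and 5.59% fell. Of the 9 genes 5 were below the array median in both groups, and the groups were apart for 0. Clec4n, or Dectin-2, which recognises fungal mannans, ran from 4.01 through 4.82 to 5.78 in Control and from 5.25 through 6.27 to 6.68 in NICD-OE-HEC. Its groups overlapped through Control replicates 1 and 2, which were high, and NICD-OE-HEC replicate 5, which was low. Clec4n rose 2.43-fold (difference 1.28, SE 0.31, adjusted p = 0.0138). Clec4d, or MCL, a partner of the mycobacterial glycolipid sensor Mincle, ran from 2.99 through 3.39 to 3.90 in Control and from 3.73 through 4.35 to 4.90 in NICD-OE-HEC. It rose by 0.87 (SE 0.21, adjusted p = 0.0127), from a Control mean of 3.43 in the range treated as background. Clec4a3, of the DCIR receptor family of myeloid cells, ran from 5.46 through 5.90 to 6.63 in Control and from 6.00 through 6.86 to 7.33 in NICD-OE-HEC, and rose by 0.77 (SE 0.23, adjusted p = 0.0438). It lost its call without Control replicate 3, 4, 5 or 6 or NICD-OE-HEC replicate 1, 2, 3, 4 or 6, and in the trended robust fit (adjusted p = 0.0514).

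The other 6 genes of the run did not pass. Clec4a1, another member of that family, was 5.38 ± 0.56 and 6.12 ± 0.58 (difference 0.74, adjusted p = 0.120) and passed with weights per array (adjusted p = 0.0333, limma) and when NICD-OE-HEC replicate 5 was left out. Clec4e, the gene of Mincle, had a difference of 1.01 with an adjusted p of 0.0517, with means of 2.56 and 3.57 that both lie below the array median. Clec4a2, Clec4a4, Clec4b1 and Clec4b2 were below it as well, with differences from 0.13 to 0.57.

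Clec7a and Clec12a, which lie on chromosome 6 on either side of Clec1b and Clec9a, rose while those fell. Clec7a, or Dectin-1, the receptor for fungal beta-glucans, ran from 5.48 through 5.74 to 6.76 in Control and from 6.16 through 7.03 to 7.75 in NICD-OE-HEC. Control replicate 1 stood far above the other Controls, whose highest value was 5.88, and it was the only Control array within the NICD-OE-HEC range. Clec7a rose 2.15-fold (difference 1.11, SE 0.28, adjusted p = 0.0160). Clec12a, an inhibitory receptor for uric acid crystals on myeloid cells, ran from 6.29 through 6.71 to 6.92 in Control and from 6.67 through 7.27 to 8.20 in NICD-OE-HEC. It rose by 0.72 (SE 0.21, adjusted p = 0.0416) and lost its call without Control replicate 3, 4, 5 or 6 or NICD-OE-HEC replicate 1, 2, 3 or 6. Clec12b, which lies between Clec12a and Clec1b, was below the array median in both groups.

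Clec5a, an activating receptor of neutrophils and macrophages that signals through DAP12, was below the array median on every array (1.92 to 2.37 in Control and 2.22 to 2.82 in NICD-OE-HEC). Its difference of 0.41 passed (SE 0.12, adjusted p = 0.0380), and it lost its call without Control replicate 2, 3, 4, 5 or 6 or NICD-OE-HEC replicate 1, 3 or 6. Clec4f, the galactose receptor that marks mouse Kupffer cells, ran from 8.85 through 9.44 to 10.44 in Control and from 8.83 through 9.95 to 10.41 in NICD-OE-HEC. The groups covered the same range (difference 0.27, 95% interval -0.31 to 0.85, adjusted p = 0.657). Clec10a, a galactose-type receptor of macrophages and dendritic cells, was 3.69 ± 0.39 and 3.76 ± 0.17, at the level of the array median (adjusted p = 0.871).

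**Figure D4:**
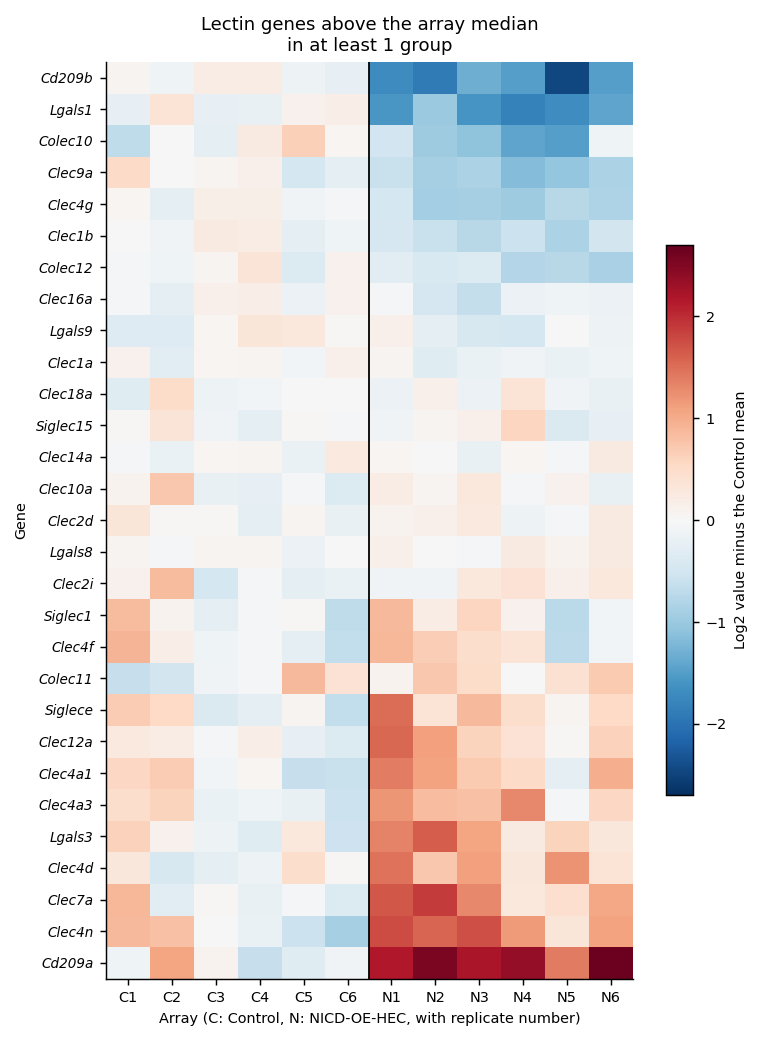
Log2 value minus the Control mean (colour) for the 29 lectin genes above the array median in at least 1 group (rows, ordered by difference) on each array (columns, C for Control and N for NICD-OE-HEC with replicate number). Cd209b, Lgals1, Clec9a, Clec4g and Clec1b are blue on all 6 NICD-OE-HEC arrays, while the receptors from Siglec1 to Clec4n vary within each group.

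The rising receptors varied from array to array within each group. Control replicate 1 was the highest Control array for 5 of the 8 genes that rose (Clec12a, Clec7a, Clec4n, Clec5a and Lgals3). In NICD-OE-HEC the lowest array was replicate 5 for 4 of them (Clec12a, Clec4a3, Clec4n and Cd209a) and replicate 4 for the other 4. Control replicate 1 also had the highest Control mean of 12 Kupffer cell and macrophage markers, 8.75, with the other Control arrays from 7.46 to 8.11. In NICD-OE-HEC that list's mean ran from 7.60 on replicate 5 to 9.09 on replicate 1. Of the 12 markers 1, Marco, was higher (by 1.49) and 0 were lower, and Vsig4 and Timd4, defining genes of Kupffer cells, differed by 0.30 and 0.22 without passing. All 12 had both group means above the array median. The share that rose, 8.33%, is near the 8.20% of probe sets equally above it. Neutrophil markers moved more. Of 10, 7 were higher and 0 lower, with a list mean from 3.27 to 4.62 in Control and from 4.67 to 6.64 in NICD-OE-HEC, while Ly6g and Mpo were below the array median in both groups. Of 6 measured monocyte markers 1, Chil3, was higher by 1.44; that list's mean ran from 3.72 to 4.22 in Control and from 3.98 to 5.05 in NICD-OE-HEC. The neutrophil list had 70% higher and the monocyte list 16.7%, against 4.89% of all probe sets. Control replicate 1 was also the highest Control array for the neutrophil and monocyte lists. The same held for the dendritic cell and hepatocyte lists, at 4.79 and 6.96, and not for the remaining cell type lists. NICD-OE-HEC replicate 5 was also lowest in its group for the hepatocyte list, at 6.15, but its neutrophil mean of 6.30 was exceeded only by replicate 1. The part of any of these cell types in the rise of the lectin receptors was not tested.

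**Figure D5:**
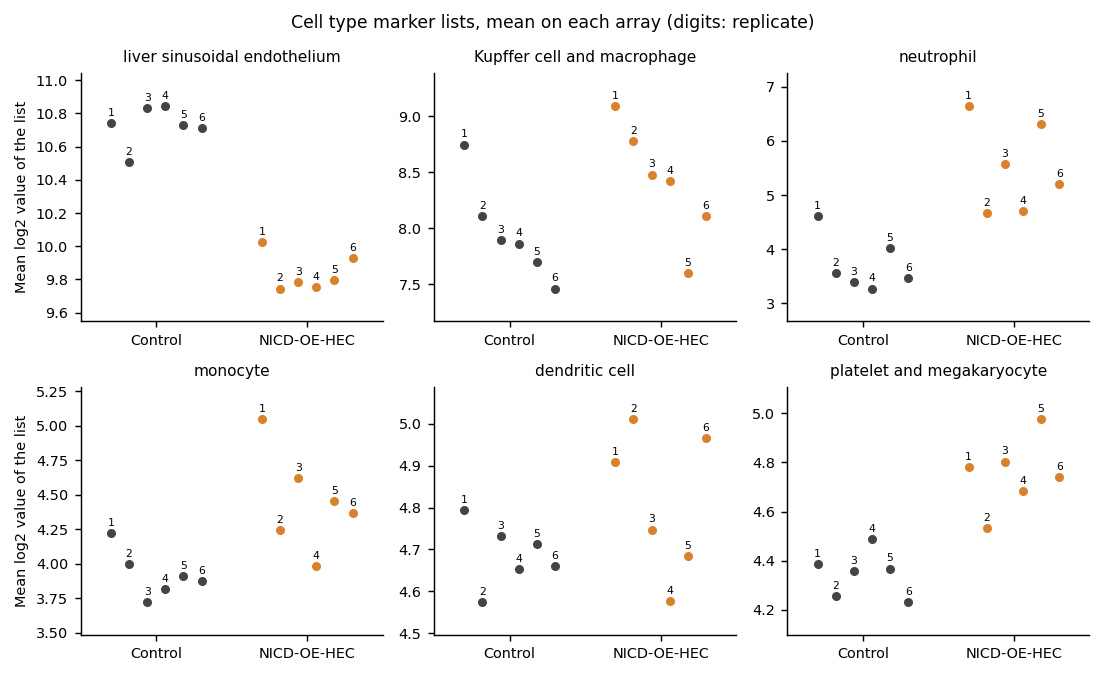
Mean log2 value (y axis, scaled per panel) of 6 cell type marker lists on each array, with the replicate number beside each point. The sinusoidal list, which holds Clec4g, Cd209b and Clec1b, and the neutrophil list are apart between the groups, and the Kupffer cell list overlaps, with NICD-OE-HEC replicate 5 at 7.60 and Control replicate 1 at 8.75.

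Siglecs gave no call. Of 6 measured 0 rose and 0 fell in limma's test, and 1, Siglece, had an unadjusted p under 0.05. Over all probe sets 10.5% passed in either direction, and a group of 6 can hold 0 calls at that share. Siglece, an inhibitory receptor of neutrophils and macrophages, ran from 4.92 through 5.50 to 6.28 in Control and from 5.66 through 6.09 to 7.10 in NICD-OE-HEC (difference 0.64, SE 0.25, adjusted p = 0.141). Siglec1, the sialoadhesin of tissue macrophages, ran from 6.02 through 6.69 to 7.56 and from 5.96 through 6.85 to 7.57, ranges that cover each other (difference 0.16, 95% interval -0.40 to 0.71). Both were lowest in NICD-OE-HEC on replicate 5 and highest in Control on replicate 1, as the means of the Kupffer cell and hepatocyte lists were. Siglec15, known from osteoclasts, was 4.67 and 4.68. Siglecf, Siglecg and Siglech, receptors of eosinophils, B cells and plasmacytoid dendritic cells, were below the array median in both groups.

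The Clec2 genes encode ligands that natural killer cells read through NKR-P1 receptors, and 0 of 9 passed limma's test, with 0 at an unadjusted p under 0.05. Clec2d, the broadly expressed ligand that restrains natural killer cells, was 9.56 ± 0.21 in Control and 9.66 ± 0.16 in NICD-OE-HEC (difference 0.09, 95% interval -0.14 to 0.33). Clec2i was 3.57 and 3.73, and the other 7 were below the array median in both groups. Among the secreted and matrix lectins Clec3a, Clec3b (tetranectin, which binds plasminogen), Clec11a and Clec18a, 0 of 4 passed, with 0 at an unadjusted p under 0.05. Of these 4, 3 were below the array median in both groups. Over all probe sets 10.5% passed in either direction, and groups of 9 and 4 genes can hold 0 calls at that share. Clec16a, a regulator of mitophagy that is a lectin by name, was 5.53 and 5.27 (difference -0.26, adjusted p = 0.205).

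Of 39 measured lectins with other names, from a list of selectins, mannose receptor relatives and the like, 4 rose (10.3%) and 3 fell (7.69%), where 4.89% and 5.59% of all probe sets did, with a median difference of 0.07. Fcer2a, the low-affinity IgE receptor CD23 and a C-type lectin, ran from 3.61 through 3.77 to 3.98 in Control and from 4.82 through 6.47 to 7.004 in NICD-OE-HEC, a rise of 2.34 (SE 0.30, adjusted p = 9.12e-05). The groups were apart, and the Control arrays stayed near the array median. Of 6 B cell markers, the cells best known for this receptor, 0 passed limma's test and 2 had an unadjusted p under 0.05, with a list mean from 3.72 to 4.04 in Control and from 3.56 to 4.72 in NICD-OE-HEC. With 10.5% of all probe sets passing in either direction, 6 markers can hold 0 calls. Of the endothelial selectins, which slow passing leukocytes, Sele rose by 2.47 (SE 0.35, adjusted p = 1.93e-04 in limma) with its groups apart. Selp rose by 0.64 (SE 0.19, adjusted p = 0.0451 in limma) and its groups overlapped. The mannose receptor Mrc1 and the related phospholipase A2 receptor Pla2r1 fell by 0.56 and by 1.34, with no overlap between the groups for either.

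Genes that carry lectin signals into the cell rose in 4 of 14 cases (28.6%) and fell in 0, with a median difference of 0.22. All 14 had both group means above the array median, where 8.20% of probe sets rose and 10.4% fell. Tyrobp, the adaptor DAP12 that serves Clec5a, rose by 0.76 (adjusted p = 0.0184), and Syk, the kinase downstream of Dectin-1, Dectin-2 and CLEC-2, by 0.52 (adjusted p = 0.0498). The phosphatase Ptpn6, which acts behind inhibitory lectins and Siglecs, rose by 0.67 and the kinase Src by 0.41. Fcer1g, the adaptor of Dectin-2 and Mincle, was 8.93 and 9.05 and did not pass (adjusted p = 0.672), nor did Card9, the relay from Syk to NF-kB (adjusted p = 0.904).

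Among 39 genes that build the sialylated and branched glycans read by Siglecs and galectins 4 rose (10.3%) and 5 fell (12.8%), with a median difference of 0.00494. Of these 39 genes 29 had both group means above the array median, and the shares are near the 8.20% and 10.4% of all probe sets equally above it. The sialyltransferase St3gal6 fell by 0.70 (SE 0.11, adjusted p = 3.46e-04). Man2a1 and Mgat1, which trim and then branch N-glycans in the Golgi, fell by 0.64 and by 0.63. The branching enzyme Gcnt1, which builds core 2 O-glycans, rose by 0.63 from a Control level below the array median. Glycans themselves were not measured.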

How the data were processed

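RNA from CD146-selected liver cells was hybridised to Affymetrix arrays, 6 Control and 6 NICD-OE-HEC, named as biological replicates of 3 pooled mice each. The authors deposited log2 values made with RMA, per the submitters' processing notes; the version of the software, the chip definition and the build were not given in the sources used here. RMA gives all arrays the same distribution (medians of 3.67), holds no detection calls, and compresses differences of dim probe sets. Of 25428 probe sets, 24705 had a gene symbol in the platform annotation and 723 had none; all 58 members matched RefSeq by Entrez identifier. The precision is limited by the number of arrays.

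A linear model per probe set with the group as its only term was fitted in limma 3.58.1 (R 4.3.3), followed by eBayes, with Benjamini-Hochberg adjustment over all probe sets and a threshold of 0.05. Every adjusted p in the text comes from this fit unless another setting is named, errors after ± are SD over 6 arrays, and SE and 95% intervals are limma's moderated ones. On simulated data for NICD-OE-HEC against Control with 25428 probe sets, 36.5% of changes of 0.5, 93.4% of 1 and 100% of 2 (log2) were recovered, and 6.06% of 165 calls were false. Changes of these sizes were put into only 63, 76 and 61 probe sets, and the noise was normal and independent. The real fit called 2666 probe sets (10.5%) on arrays that can share structure, so these shares need not carry over to it. Promoter letters come from RefSeq (GRCm38.p6).

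Named with values are all members past the threshold, Clec4g, Cd209b and Clec1b, the 2 members of highest mean in each role group, and up to 4 called genes of largest difference per pathway list. Clec4e, Lgals8, Siglec15, Mrc1, Lgals3bp, Fcer1g, Card9, Pdpn and the named markers were added after their values were seen. Members and lists were chosen with earlier results of these data known. Alternatives were median centring, removal of dim probe sets, a trended robust fit, weights per array, a block for the replicate number, a fold threshold, another choice of probe set and leaving out arrays.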

Additional observations from a re-analysis of the deposited data

Results flagged for a closer look

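Among 58 checks, of 29 named lectin genes in each group of 6 arrays, 3 found an array far from the others; chance gives about 1 in 20. Clec7a was at 6.761 on Control replicate 1, with the next Control array at 5.885, a gap of 0.686 of the group's range. Clec5a was at 2.369 on the same array, with the next at 2.071 and a gap of 0.669 of the range, and all its values lie below the array median. Clec3b was at 3.311 on NICD-OE-HEC replicate 3, with the next array at 3.59 and a gap of 0.669 of the range. Without Control replicate 1, both Clec7a and Clec5a kept their calls.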

How the results depend on the processing

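Of the 15 lectin genes past the threshold, Clec1b, Clec7a, Clec9a, Clec4n, Clec4d, Clec4g, Cd209b, Cd209a, Colec12 and Lgals1 kept direction and call under every alternative that tested them other than the fold threshold. The other 5 lost the call in some, and 0 of the 15 changed direction. Median centring could change little, because the array medians already agreed at 3.67. Another choice of probe set could not act on members that have 1 probe set each. Against 8 higher and 7 lower members, a log2 difference of at least 1 left 3 (Cd209a, Clec4n and Clec7a) and 2 (Cd209b and Lgals1), where 2.09% of all probe sets passed, array weights gave 11 and 7, Clec4a1 among those gaining a call, and the trended robust fit 6 and 7, Clec4a3 and Lgals3 losing theirs. Leaving out 1 array gave 4 to 9 higher and 6 to 7 lower, and over all probe sets 1017 to 1323 and 1090 to 1647. With the replicate number as a block 10 members were higher and 6 lower, Clec5a (adjusted p = 0.0508) and Colec10 (0.0587) losing their calls and Clec4a1 (0.0154) among those gaining one. Over all probe sets that block gave 1294 higher and 1213 lower, against 1244 and 1422. The numbers share no stated origin: same-numbered arrays correlated in their deviations by -0.105 to 0.219, 3 of 6 over 0.1, and 3 of 6 correlated best with their own number. Differences near 0 changed sign. Clec18a went from -0.02 to 0.0103 with array weights and to 0.0038 without Control replicate 2 and NICD-OE-HEC replicate 4 together. Clec14a went from 0.02 to -0.0225 and -0.0284 under the same settings. Leaving out 1 array gave -0.0031 to 0.22 for Clec10a, -0.0945 to 0.0800 for Clec18a, -0.0437 to 0.10 for Clec3b and -0.0283 to 0.0703 for Clec14a. The cause of these changes was not tested. Signal near background limits the members below the array median, whose differences RMA compresses.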

Other observations

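Control replicate 2 was the highest Control array for Cd209a at 4.50, Clec10a at 4.41, Clec2i at 4.42 and Clec18a at 4.64. It was also the highest for brighter members, among them Lgals1 at 9.78, Clec4a3 at 6.63 and Clec4a1 at 6.07. For others, such as Clec4g at 12.10 and Clec1a at 6.98, it was the lowest Control array. Cholangiocyte markers were higher in 5 of 5 measured genes, with a list mean from 3.98 to 4.41 in Control and from 4.71 to 5.16 in NICD-OE-HEC. Hepatocyte markers were higher in 3 of 9, with a list mean from 5.72 to 6.96 in Control and from 6.15 to 7.47 in NICD-OE-HEC. The share of all probe sets that rose was 4.89%. Of 10 T and natural killer cell markers, 7 plasmacytoid dendritic cell markers and 5 eosinophil markers, 0 passed limma's test, with 0, 1 and 0 at an unadjusted p under 0.05. Below the array median in both groups were 4, 2 and 5 of them. Of all probe sets 10.5% passed in either direction, and lists of these sizes can hold 0 calls at that share.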
